A study of Mus musculus with 31 samples.

Results

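Semaphorins, plexins, neuropilins, ephrins and Eph receptors are ligands and receptors of cell guidance, and their RNA levels are described here in cells sorted from the newborn mouse pancreas. All rows of the deposited tables that carry the symbol of a member of these families were taken, whatever their level. This gave 54 of 38283 rows and 53 symbols: 20 semaphorins, 9 plexins, 2 neuropilins, 9 ephrin rows and 14 Eph receptors. Efna5 has a pair of rows for 1 locus (chr17:62604184-62881317). One of them, ENSMUSG00000048915, is in GENCODE M21, while the other, ENSMUSG00000090425, is not, so reads of this gene could have been divided between the rows and both values are uncertain.

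The pancreata came from C57BL/6 mice at postnatal day 2, and cells were separated by flow cytometry into a YFP-positive mesenchymal and a YFP-negative non-mesenchymal fraction. Every group, controls included, carried 1 Cre allele at Nkx3.2, a gene of the foregut mesenchyme. In the H19DMD model, mutants were H19DMDfl/+; Nkx3.2+/Cre and controls H19DMD+/+; Nkx3.2+/Cre. H19DMD is the imprinting control region beside H19, deleted here in order to raise Igf2. This model gave 3 control and 4 mutant libraries of each fraction. In the Igf2 model, mutants were Igf2+/fl; Nkx3.2Cre/+ and controls Igf2+/+; Nkx3.2Cre/+, and its non-mesenchymal fraction is covered by 4 control and 3 mutant libraries. The remaining samples of the series, among them the mesenchymal cells of the Igf2 model, were not analysed here. The labels do not say whether replicates came from separate animals, so p-values measure the spread between these libraries, which may be partly technical. Levels are in FPKM (fragments scaled by the length of the transcript and the size of the library), which can be set side by side between genes because they are given per length, although the sequencing depth is unknown.

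As background, semaphorins are secreted (class 3) or held in the membrane (classes 4 to 7) and signal through plexins. Most class 3 semaphorins need a neuropilin, Nrp1 or Nrp2, as the ligand-binding partner of a class A plexin, and neuropilins also bind VEGF in blood vessels. Ephrins are membrane-bound ligands for Eph receptor tyrosine kinases, and the A ephrins are anchored by a lipid while the B ephrins cross the membrane. Both systems are best known from axon guidance and vessel growth, and they also act where epithelium and mesenchyme meet.

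The fractions carried the markers of their labels. All 11 mesenchymal markers tested were higher in mesenchymal cells in both genotypes. The summed level of the 12 mesenchymal marker genes listed was 6108 to 7172 FPKM in mesenchymal and 185 to 213 FPKM in non-mesenchymal control libraries, and Nkx3-2 and Barx1 were at 0 in the latter. For 8 acinar markers the sums were 667 to 1467 and 41838 to 111362 FPKM. Endothelial markers went with the YFP-positive fraction: the sum over 8 genes was 114 to 147 FPKM in mesenchymal and 21.8 to 66.2 FPKM in non-mesenchymal controls, and 102 to 195 against 39.03 to 66.3 FPKM in the mutants. Of those 8 endothelial genes, 3 passed the test as higher in mesenchymal controls and 4 in mesenchymal mutants, and none was lower. Pericyte and smooth muscle markers (6 of 6 in both genotypes) and mesothelial markers (4 of 4) were also higher there, whereas leukocyte markers (6 of 7) were lower. Also lower there were 7 of 7 acinar, 9 of 9 endocrine and 4 of 5 erythroid markers tested in each genotype, ductal markers (4 of 6 in controls and 6 of 6 in mutants) and Schwann cell and neural markers (3 of 5 and 4 of 7). Ptf1a, Pnlip, Neurod1 and Sox10 were at 0 in all mesenchymal controls. In mesenchymal cells H19 was 2446 ± 8.11 FPKM in controls and 700.3 ± 123 FPKM in H19DMD mutants (limma adjusted p = 0.0458), and Igf2 was 3849 ± 189 and 7039.7 ± 799.8 FPKM (limma adjusted p = 0.927).

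Mesenchymal cells held more of these families at high level than non-mesenchymal cells did. A mean of at least 10 FPKM was reached by 24 of the 54 rows in mesenchymal controls and by 22 in mesenchymal mutants, against 8 and 10 in the non-mesenchymal groups of the same table. In the Igf2 model, 14 rows in controls and 16 in mutants reached that level. Sema3c, a secreted class 3 semaphorin, had the highest mean of all in mesenchymal cells, at 92.1 ± 27.9 FPKM in controls (SD, n = 3) and 107 ± 38.3 FPKM in mutants (SD, n = 4). It was followed in both by Sema5a, Nrp1 and Nrp2. Non-mesenchymal controls had Sema5a (21.6 ± 0.849 FPKM), Sema4a (20.9 ± 2.33 FPKM), Sema6a (20.4 ± 2.87 FPKM) and Sema4d (19.1 ± 0.191 FPKM) at the top, and neighbours in that order differed by less than the larger SD of the pair. In the Igf2 model the order was led by Plxnb2, at 37.8 ± 11.9 FPKM in controls and 39.5 ± 17.01 FPKM in mutants. At the low end, 5 genes had a mean under 1 FPKM in all 6 groups: Sema3e, Sema6b, Epha6, Epha8 and Epha10. An exact 0 in such a table can be a failed estimate, so these values are only said to be listed at 0.

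**Figure D1:**
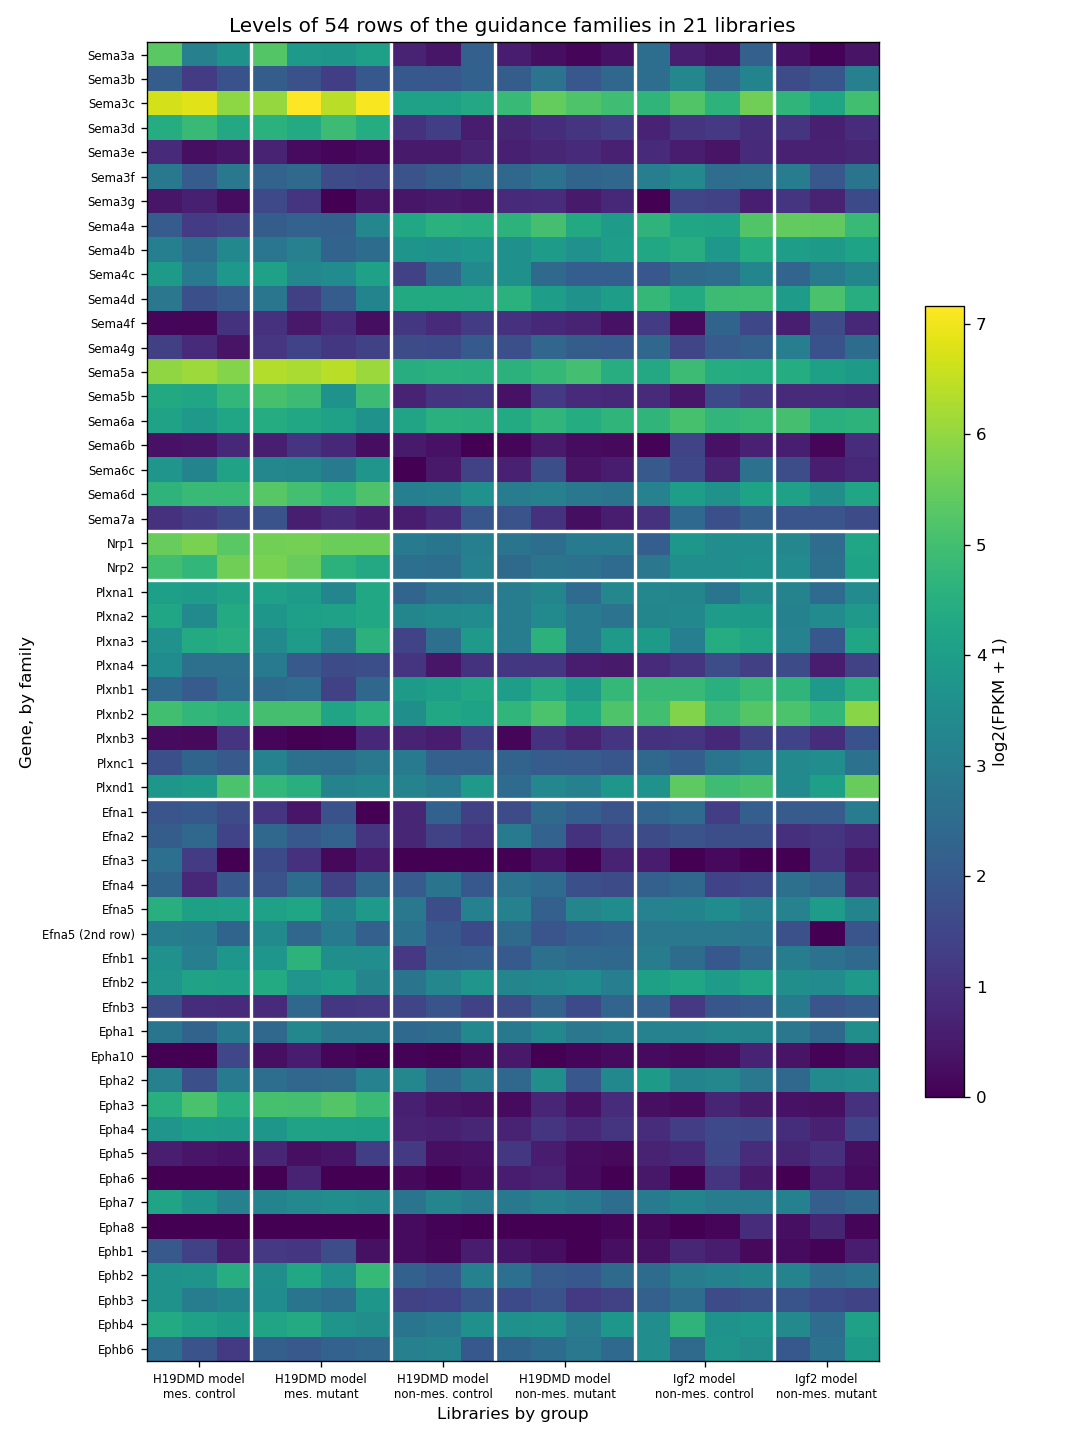
Level of each of the 54 rows (vertical, by family) in each of the 21 libraries (horizontal, by group), as log2(FPKM + 1) in colour, with white lines between families and groups. The mesenchymal groups on the left are brighter in Sema3c, Sema5a, Nrp1, Nrp2 and Epha3, and the non-mesenchymal groups in Sema4a, Sema4d and Plxnb1.

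The summed level differed in direction between the classes. Class 3 semaphorins added up to 99.97 to 174 FPKM in mesenchymal and 24.1 to 31.997 FPKM in non-mesenchymal controls, and neuropilins to 74.9 to 87.2 and 10.9 to 15.4 FPKM. Class 5 semaphorins summed to 81.2 to 86.1 FPKM in mesenchymal and 21.4 to 23.6 FPKM in non-mesenchymal controls. Class 4 semaphorins were the reverse, with 16.3 to 32.4 FPKM in mesenchymal and 54.6 to 67.4 FPKM in non-mesenchymal controls. In none of these classes did the libraries of the fractions overlap. Epha receptors (59.1 to 67.1 against 19.1 to 25.1 FPKM) and Ephb receptors (39.6 to 51.1 against 19.05 to 24.95 FPKM) were also above the non-mesenchymal controls in every library. Class B plexins overlapped, at 28.9 to 35.2 and 25.4 to 36.6 FPKM. In mutants, class 3 semaphorins summed to 130.5 to 184 against 37.4 to 56.8 FPKM and class 4 semaphorins to 22.7 to 39.8 against 49.5 to 71.9 FPKM, the same order of fractions as in controls. A ephrins were apart in controls (26.9 to 44.1 against 15.5 to 16.3 FPKM) and overlapped in mutants (22.9 to 35.7 against 18.7 to 26.8 FPKM). Plxnc1, the one class C plexin, read 2.39 to 3.95 against 3.55 to 6.91 FPKM in controls, with overlap, and 5.01 to 7.95 against 2.7997 to 3.83 FPKM in mutants, where the mesenchymal libraries were the higher ones. These sums are descriptions and were given no test.

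**Figure D2:**
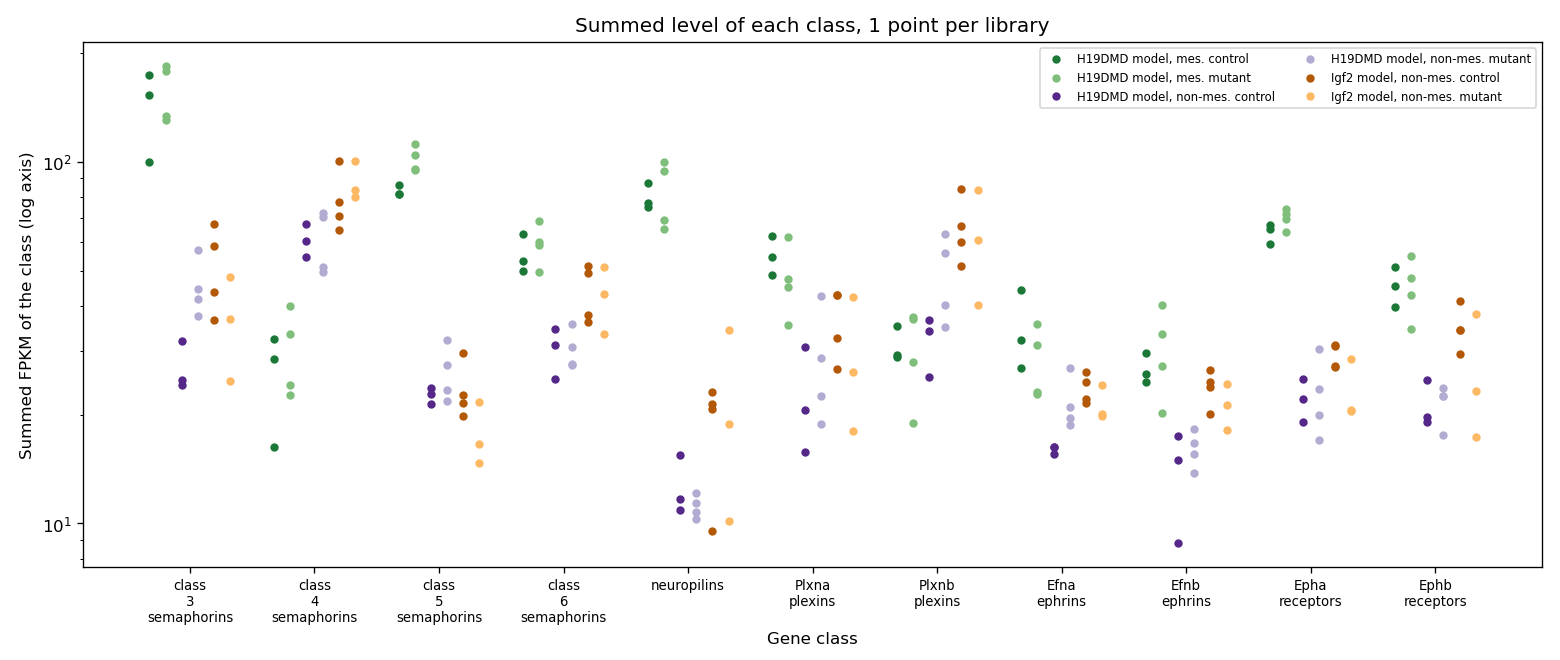
Summed FPKM of the members of a class (vertical, log axis) for 11 classes (horizontal), 1 point per library, coloured by group. Class 3 and 5 semaphorins and neuropilins separate the mesenchymal from the non-mesenchymal groups upwards, and class 4 semaphorins separate them downwards.

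The H19DMD table allowed mesenchymal and non-mesenchymal cells to be compared in controls and, with other libraries, in mutants. Tests were made with limma on log2(FPKM + 1) over all genes whose mean reached 1 FPKM in the groups tested, and a gene was called at a Benjamini-Hochberg adjusted p under 0.05. Log2 differences on this scale understate the change of low genes. In controls 44 of the 54 rows had enough signal to be tested, and 18 were higher and 3 lower in mesenchymal cells. Over all 16732 genes tested, 22.6% were called, 12.4% higher and 10.3% lower. In mutants 43 rows were tested, with 19 higher and 5 lower, where 28.6% of 16767 genes were called, 13.5% higher and 15.1% lower. The median log2 difference of the members tested was 0.91 in controls and 0.56 in mutants, beside 0.08 and -0.03 for all genes tested. In bulk libraries a larger share of cells of one type and more RNA per cell cannot be told apart.

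Of the calls, 16 were higher in both genotypes, which is 88.9% of the members higher in controls and 84.2% of those higher in mutants. Over all genes called higher the shares were 73.2% and 66.8%. The 16 were the semaphorins Sema3a, Sema3c, Sema3d, Sema5a, Sema5b, Sema6c and Sema6d, both neuropilins, the class A plexins Plxna1 and Plxna4, the ephrin Efnb1, and the receptors Epha3, Epha4, Ephb2 and Ephb3. Lower in both were Sema4a, Sema4d and Plxnb1, the 3 calls of the controls and 60% of the mutants' calls, where over all genes called lower the shares were 79.9% and 54.1%. The groups of all 21 genes called in controls were free of overlap, and their exact permutation p was 0.1, the smallest that 3 libraries against 3 allow. Without regard to the test, 25 of the 44 members had groups that did not overlap in controls (39.9% of all genes tested) and 23 of 43 in mutants (31% of all). In the mutants' calls Sema4c and Plxna1 overlapped between groups, and the other calls had an exact permutation p of 0.0286, the smallest for 4 libraries against 4.

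**Figure D3:**
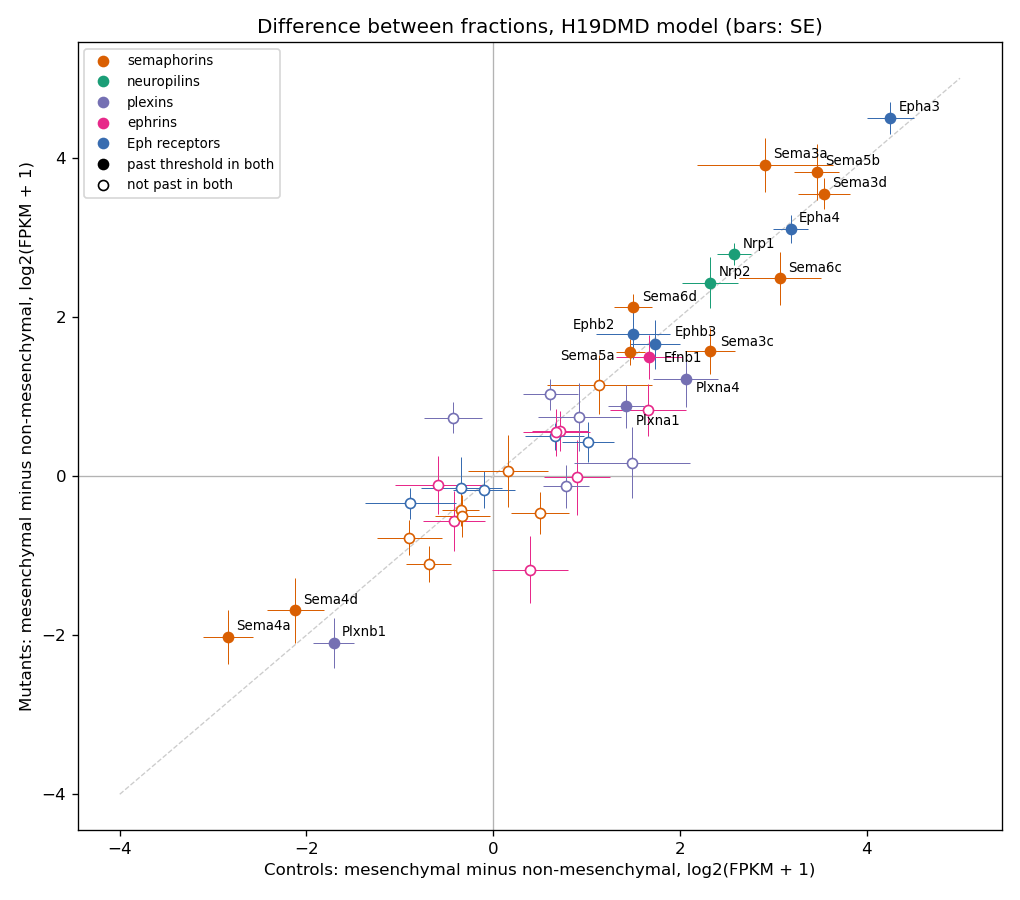
Difference between mesenchymal and non-mesenchymal cells on the log2(FPKM + 1) scale in H19DMD controls (horizontal) and mutants (vertical) for each member tested in both, with bars of 1 SE and colours by family. Filled points passed the threshold in both, and on the horizontal axis they run from Sema4a at -2.84 to Epha3 at 4.25.

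Only members whose upstream window overlaps no annotated exon were considered for showing promoter sequences. Among them, Epha3, Sema3d and Sema6c had the largest positive log2 differences in controls, and Sema4a had the largest negative one. Promoter sequences are shown for Epha3, Sema3d, Sema6c and Sema4a. Each is the 250 bases before the most upstream RefSeq transcription start on GRCm38.p6, 5′ to 3′ on the gene's strand. Capitals mark matches on either strand to the GC box GGGCGG, the TATA box TATAAA, the CCAAT box or the E-box CANNTG. The windows lie at chr16:63864176-63864425 (minus strand) for Epha3, chr5:12382916-12383165 (plus) for Sema3d, chr3:95160170-95160419 (plus) for Sema6c and chr3:88461183-88461432 (minus) for Sema4a.
Epha3: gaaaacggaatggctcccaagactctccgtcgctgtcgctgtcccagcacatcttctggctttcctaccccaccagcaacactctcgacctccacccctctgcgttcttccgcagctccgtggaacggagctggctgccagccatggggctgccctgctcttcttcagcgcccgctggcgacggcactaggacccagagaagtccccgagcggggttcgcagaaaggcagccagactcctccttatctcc
Sema3d: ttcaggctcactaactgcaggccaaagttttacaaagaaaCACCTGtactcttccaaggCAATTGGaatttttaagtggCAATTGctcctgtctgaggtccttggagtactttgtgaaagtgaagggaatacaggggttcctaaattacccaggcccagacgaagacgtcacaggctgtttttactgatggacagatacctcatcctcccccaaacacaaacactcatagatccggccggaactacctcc
Sema6c: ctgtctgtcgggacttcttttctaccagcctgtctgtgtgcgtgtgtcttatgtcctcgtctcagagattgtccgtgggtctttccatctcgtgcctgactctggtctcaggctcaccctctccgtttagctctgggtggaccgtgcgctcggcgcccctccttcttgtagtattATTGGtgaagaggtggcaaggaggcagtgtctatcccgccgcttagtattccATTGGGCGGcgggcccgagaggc
Sema4a: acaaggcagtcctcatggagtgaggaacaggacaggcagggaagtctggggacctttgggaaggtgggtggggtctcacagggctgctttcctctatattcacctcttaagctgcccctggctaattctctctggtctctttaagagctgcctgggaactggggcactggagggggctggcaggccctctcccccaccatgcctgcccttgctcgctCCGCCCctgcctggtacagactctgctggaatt
The Epha3 window holds none of the 4 motifs. Sema3d has 3 E-box matches and 1 CCAAT match, and the middle E-box overlaps the CCAAT match on the other strand. Sema6c has 2 CCAAT matches, one of them overlapping its GC box, and Sema4a has 1 GC box.

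Windows before the most upstream RefSeq start were found for 47 members, and all were kept whether or not they overlap an annotated exon. Those of Sema3c, Sema5a and Plxnb1 are among the windows that do overlap one. The median GC content of the members' windows was 64.4%, against 52.4% over all 32851 windows of the RefSeq table. The median number of CpG dinucleotides was 16 against 6. These sets were not matched: members have 1 window each, before the most upstream start, while the full set takes every start in the table. The differences, and those of the motifs that follow, are therefore not shown to be a trait of these families. A GC box match was present in 76.6% of the members' windows and in 32.7% of all, the TATA box in 2.13% and 12.4%, the CCAAT box in 31.9% and 33.8%, and an E-box in 48.9% and 66.2%. Among the 14 members higher in mesenchymal cells in both genotypes that had a window, 57.1% held a GC box. The fewest CpG dinucleotides were in the windows of Sema4d (1), Sema3a and Sema4a (2 each), Plxnb3 (3), and Sema3d and Sema4f (4 each), of which Plxnb3 and Sema4f were too low to be tested for the fractions. The Sema4d window (chr13:51756684-51756933) lies inside the gene's deposited locus and overlaps an annotated exon. Its count is therefore not that of the bases upstream of the whole locus. A letter match is a description of the sequence and says nothing of binding.

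Among the ligands, the secreted Sema3d had the largest log2 difference between fractions in controls. Sema3d (chr5:12383166-12588943), which is known from neural crest and heart development, read 20.7, 27.3 and 18.8 FPKM in the mesenchymal controls and 1.08, 1.52 and 0.473 FPKM in the non-mesenchymal controls. Mutant libraries of Sema3d gave 22.8, 19.8, 29.3 and 20.4 FPKM and 0.6596, 0.925, 1.16 and 1.46 FPKM. Every mesenchymal library lay more than 10 FPKM above every non-mesenchymal one. The log2 difference was 3.54 (SE 0.28) in controls and 3.55 (SE 0.20) in mutants (limma adjusted p = 5.34e-04 and 8.23e-06). In the Igf2 model the 7 non-mesenchymal libraries read 0.5398 to 1.29 FPKM, near those of the H19DMD table, although the tables were normalised separately.

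Sema3a (chr5:13396784-13602565), a repellent that acts through Nrp1, was uneven between replicates. It read 38.95, 7.69 and 11.5 FPKM in mesenchymal and 0.636, 0.352 and 3.604 FPKM in non-mesenchymal controls, and 37.1, 13.7, 12.7 and 15.5 against 0.498, 0.191, 0.0884 and 0.2804 FPKM in mutants. Mesenchymal control 1 and mesenchymal mutant 1 stood above the other mesenchymal libraries, and non-mesenchymal control 3 above the other non-mesenchymal ones. Its log2 difference was 2.91 (SE 0.73) in controls and 3.91 (SE 0.34) in mutants (limma adjusted p = 0.0354 and 7.08e-05). The call in controls was lost without mesenchymal control 1 or 3 (limma adjusted p = 0.0709 and 0.0777) and without non-mesenchymal control 1 or 2 (0.103 and 0.113). In mutants it held whichever library was left out.

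Sema3c (chr5:17574281-17730268), an attractant and a ligand for both neuropilins, was the most abundant member in mesenchymal cells and was present in both fractions. Controls gave 103, 113 and 60.4 FPKM in mesenchymal and 16.1, 15.99 and 19.1 FPKM in non-mesenchymal libraries. In mutants the values were 64.1, 142, 84.8 and 136 and 27.2, 43.1, 35.3 and 30.1 FPKM. The fractions did not overlap, and the mean was 5.404 times higher in mesenchymal cells in controls and 3.15 times in mutants (log2 difference 2.32 and 1.57; limma adjusted p = 0.00221 and 0.00407). Sema3b, Sema3f and Sema3g, the other class 3 members beside Sema3e, had means under 10 FPKM in all 6 groups. Neither Sema3b nor Sema3f was called in either genotype, and Sema3g was under the level for testing.

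Both class 5 semaphorins, membrane proteins with thrombospondin repeats, were higher in mesenchymal cells. Sema5b (chr16:35541145-35664732) read 19.5, 17.7 and 25.9 FPKM in mesenchymal against 0.612, 1.12 and 1.24 FPKM in non-mesenchymal controls. Its mutant values were 32.8, 28.9, 11.5 and 28.9 and 0.285, 1.33, 0.831 and 0.738 FPKM, with mesenchymal mutant 3 the lowest of the mesenchymal libraries. Sema5a (chr15:32244813-32696341) was abundant on both sides, at 61.9 ± 6.32 and 21.6 ± 0.849 FPKM in controls (SD, n = 3 each). Differences of 3.46 (SE 0.24) for Sema5b and 1.47 (SE 0.15) for Sema5a in controls had limma adjusted p = 3.66e-04 and 0.00143, and in mutants they were 3.82 and 1.56 (limma adjusted p = 9.50e-05 and 1.78e-04).

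Class 6 semaphorins, transmembrane ligands of class A plexins, divided. Sema6c (chr3:95160457-95174024) read 12.4, 8.38 and 16.4 FPKM in mesenchymal and 0, 0.3904 and 1.66 FPKM in non-mesenchymal controls, with the 0 as listed, and 8.86, 8.78, 6.62 and 12.3 against 0.57003, 2.31, 0.308 and 0.469 FPKM in mutants. Its lowest mesenchymal value was above the highest non-mesenchymal value of the table. Sema6d (chr2:124089969-124667770) was 26.7 ± 2.29 FPKM in mesenchymal and 8.88 ± 2.01 FPKM in non-mesenchymal controls (SD, n = 3 each; limma adjusted p = 0.00391). Sema6a, at 11.6 to 20.8 FPKM over the mesenchymal and 17.2 to 25.1 FPKM over the non-mesenchymal libraries, overlapped and was not called. Sema7a, the only class 7 member, ranged over 0.1998 to 4.41 FPKM across all 21 libraries and was not called.

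Of 5 class 4 semaphorins tested, 2 were lower in mesenchymal controls (10.3% of all genes were), and in mutants 4 were lower and 1 was higher (15.1% and 13.5% of all genes). Sema4a (chr3:88435959-88461182), a membrane ligand known from T cells and the retina, read 3.25, 1.39 and 1.75 FPKM in mesenchymal and 18.2, 22.7 and 21.7 FPKM in non-mesenchymal controls. In mutants it read 3.28, 3.75, 3.57 and 8.86 and 23.6, 31.9, 19.3 and 14.3 FPKM, where mesenchymal mutant 4 stood above its group and still below every non-mesenchymal library. The mean was 9.797 times higher in non-mesenchymal controls and 4.58 times in mutants (log2 -2.84 and -2.02 on the mesenchymal side; limma adjusted p = 9.91e-04 and 0.00261).

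Sema4d (chr13:51701246-51793747), the ligand of Plxnb1 and a protein of lymphocytes and epithelia, read 6.09, 2.33 and 3.17 FPKM in mesenchymal and 19.3, 19.2 and 18.9 FPKM in non-mesenchymal controls. Its mutant libraries gave 5.97, 1.55, 3.23 and 8.31 and 22.6, 14.9, 11.5 and 15.1 FPKM. The fractions were apart in both genotypes, by 4.94 and 3.37 times (limma adjusted p = 0.00484 and 0.0162). Leukocyte markers moved the same way and summed to 15.4 to 28.9 FPKM in mesenchymal and 226 to 435 FPKM in non-mesenchymal controls, and endocrine markers to 54.1 to 225 and 19671 to 29787 FPKM. Their part in the difference was not tested. Sema4b and Sema4g were called lower in mesenchymal cells in the mutants (log2 -1.11 and -0.78), and in controls the differences were -0.69 and -0.901 without passing the threshold. Sema4c, at 12.8 ± 3.79 FPKM in mesenchymal and 5.64 ± 3.71 FPKM in non-mesenchymal mutants, was the class 4 member called in the mesenchymal direction, with overlapping groups (limma adjusted p = 0.0493). The call on Sema4c was lost without any 1 mutant library except non-mesenchymal mutant 1 (limma adjusted p = 0.0566 to 0.123). That on Sema4g was lost without mesenchymal mutant 1 or 3 (0.0663 and 0.0673) and without non-mesenchymal mutant 2, 3 or 4 (0.0861, 0.07396 and 0.0664). Sema4f, the last of the class, had a mean under 2 FPKM in all 6 groups and was not tested for the fractions.

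Turning to the receptors, both neuropilins were higher in mesenchymal cells. Nrp1 (chr8:128359073-128505462) read 44.3, 51.5 and 39.4 FPKM in mesenchymal and 6.64, 5.88 and 7.56 FPKM in non-mesenchymal controls, and 48.8, 49.6, 45.5 and 46.3 against 5.78, 4.99, 6.71 and 6.78 FPKM in mutants. Its replicates lay close together, and the ratio of means was 6.73 in controls and 7.84 in mutants. Nrp2 (chr1:62703285-62818695) gave 30.5, 25.5 and 47.8 FPKM in mesenchymal and 5.07, 5.01 and 7.87 FPKM in non-mesenchymal controls, and 51.2, 44.5, 23.3 and 18.8 against 4.54, 5.75, 5.44 and 4.62 FPKM in mutants. It was more spread among the mesenchymal libraries than Nrp1 but did not overlap between fractions. Log2 differences in controls were 2.58 (SE 0.18) for Nrp1 and 2.33 (SE 0.30) for Nrp2 (limma adjusted p = 3.90e-04 and 0.00317), and in mutants 2.79 (SE 0.14) and 2.43 (SE 0.32) (limma adjusted p = 5.23e-06 and 7.53e-04). Endothelial cells also express neuropilins, and the sum of endothelial markers was larger in the mesenchymal libraries, as given above. What part it had in the neuropilin difference was not tested. The Igf2 model's non-mesenchymal libraries read 3.404 to 17.7 FPKM for Nrp1 and 5.203 to 16.7 FPKM for Nrp2.

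Plexins were less alike. Plxna4 (chr6:32145926-32588192) and Plxna1 (chr6:89304630-89362613), the signalling partners of neuropilins, were higher in mesenchymal cells in both genotypes. Plxna4 read 10.2, 5.26 and 5.24 FPKM in mesenchymal and 1.14, 0.342 and 1.08 FPKM in non-mesenchymal controls, and 6.601, 2.96, 2.15 and 2.27 against 1.22, 1.19, 0.499 and 0.441 FPKM in mutants. Plxna1 read 15.4, 14.3 and 16.3 against 4.04, 5.404 and 6.01 FPKM in controls and 16.03, 14.6, 8.74 and 18.04 against 6.996, 8.63, 4.69 and 8.97 FPKM in mutants. The controls were clear of overlap for both genes, whereas for Plxna1 mesenchymal mutant 3 lay among the non-mesenchymal mutants. Limma gave adjusted p = 0.009004 and 0.00419 in controls and 0.0321 and 0.0439 in mutants. The mutants' call on Plxna4 was lost without mesenchymal mutant 1 or 2 (limma adjusted p = 0.0565 and 0.0641) or without non-mesenchymal mutant 3 or 4 (0.0779 and 0.08002). For Plxna1 it was lost without mesenchymal mutant 1, 2 or 4 (limma adjusted p = 0.0942, 0.0924 and 0.102) or without any 1 of the non-mesenchymal mutants 1 to 4 (0.0913, 0.0632, 0.102 and 0.0573).

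Plxnb1 (chr9:109093844-109119911), the receptor for Sema4d, had the opposite direction, as its ligand did. Its levels were 4.4003, 3.18 and 5.06 FPKM in mesenchymal and 14.05, 15.5 and 18.3 FPKM in non-mesenchymal controls. Mutants gave 4.503, 4.92, 1.61 and 4.26 and 15.2, 20.8, 14.5 and 26.3 FPKM. No library of one fraction reached the other, and the log2 difference was -1.71 (SE 0.22) in controls and -2.098 (SE 0.32) in mutants (limma adjusted p = 0.003101 and 0.001495). Plxnb2, a receptor for class 4 semaphorins, was among the more abundant members in both fractions and was not called in either genotype. In controls it read 23.1 to 30.7 FPKM in mesenchymal and 10.8 to 18.1 FPKM in non-mesenchymal libraries, without overlap (log2 0.78, limma adjusted p = 0.0741). In mutants it read 17.3 to 32.2 and 19.8 to 35.7 FPKM, with overlap. Plxnd1, the endothelial receptor for Sema3e, read 8.16 to 34.1 and 4.695 to 13.8 FPKM and was not called. Plxna2 and Plxnc1 were called higher in mesenchymal cells in the mutants (log2 1.03 and 0.73). In controls their differences were 0.61 and -0.43, and the test of the difference between genotypes did not pass for either. The mutants' call on Plxnc1 was lost without mesenchymal mutant 1 or 4 (limma adjusted p = 0.0522 and 0.0511) or without non-mesenchymal mutant 2, 3 or 4 (0.0562, 0.0556 and 0.06301). Plxna3, a further partner of neuropilins, read 8.23 to 23.2 and 1.79 to 23.3 FPKM and was not called, and Plxnb3 had means under 2 FPKM in all 6 groups.

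**Figure D4:**
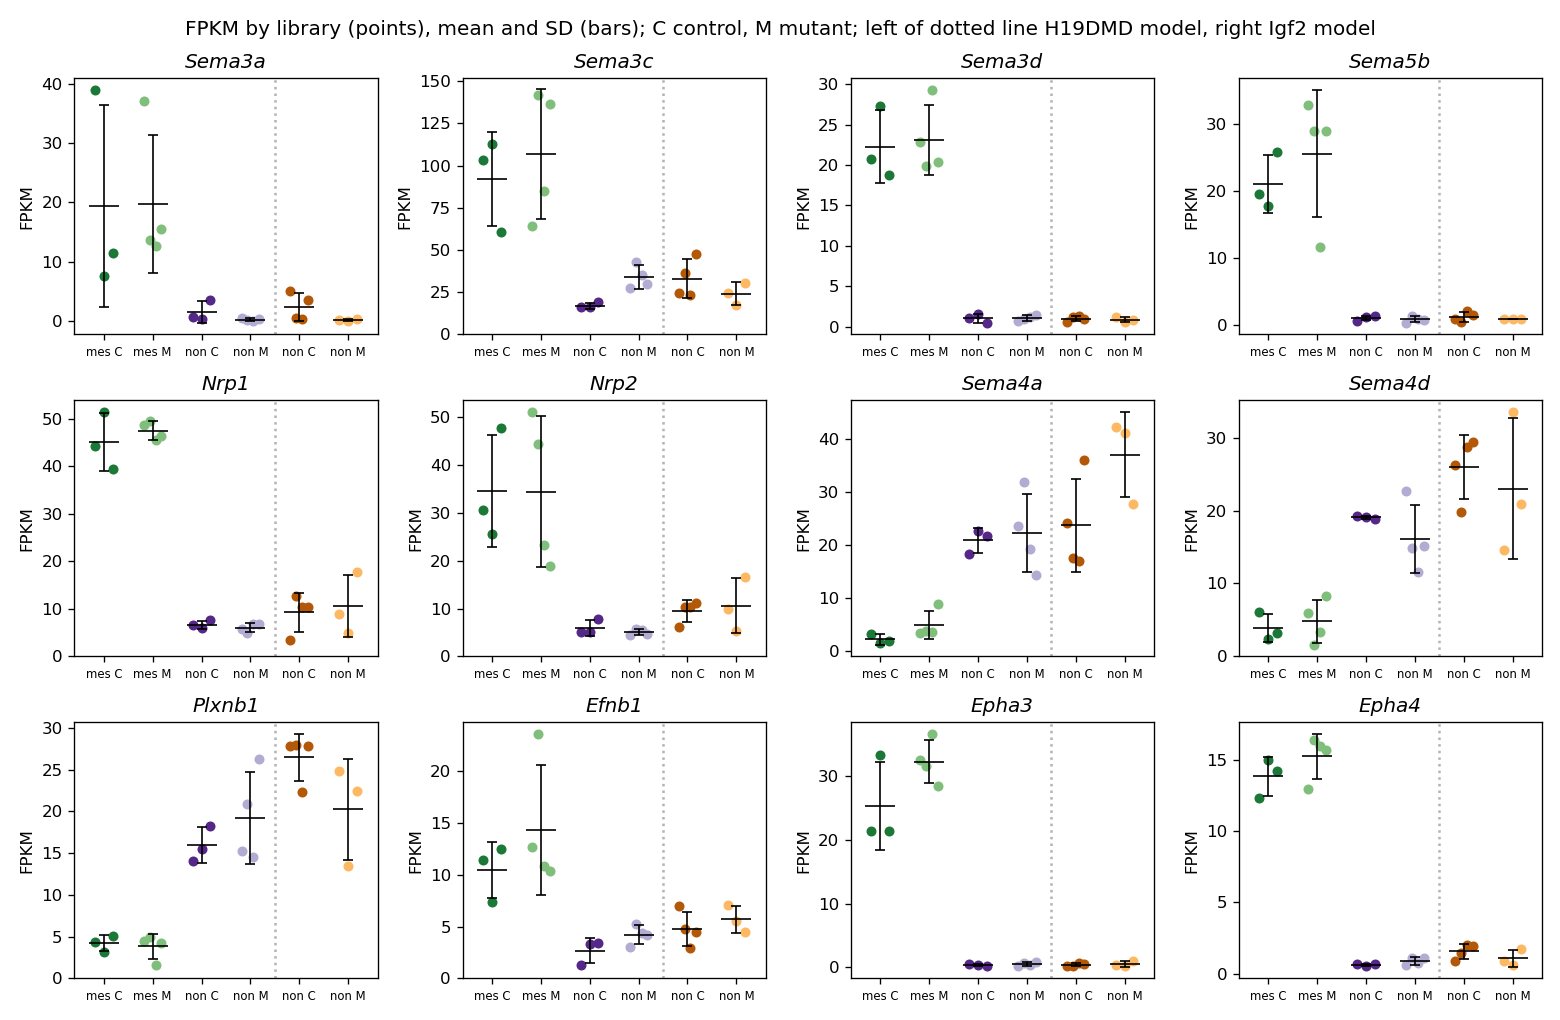
FPKM (vertical, linear axis) of 12 members in every library (points) by group (horizontal), with mean and SD as bars. Sema3d, Sema5b, Epha3 and Epha4 are near the baseline in all non-mesenchymal groups of both models, and Sema4a, Sema4d and Plxnb1 are above the mesenchymal groups there.

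Of the ephrins, Efnb1 was called in both genotypes. Efnb1 (chrX:99136130-99148991), a transmembrane ligand of EphB receptors whose gene is X-linked, read 11.4, 7.37 and 12.5 FPKM in mesenchymal and 1.27, 3.34 and 3.42 FPKM in non-mesenchymal controls, and 12.6, 23.6, 10.8 and 10.3 against 3.07, 5.21, 4.404 and 4.23 FPKM in mutants. Mesenchymal mutant 2 was the highest of all and the fractions did not overlap. Its log2 difference was 1.67 (SE 0.35) in controls and 1.49 (SE 0.28) in mutants (limma adjusted p = 0.01999 and 0.00468), and the call in controls was lost without mesenchymal control 1 or 3 (limma adjusted p = 0.0694 and 0.06997). Efnb2, the arterial ephrin, was 14.95 ± 2.26 FPKM in mesenchymal and 9.03 ± 3.32 FPKM in non-mesenchymal controls and was not called. The Efna5 row that is in GENCODE M21 was called higher in mesenchymal controls (17.98 ± 3.47 against 5.47 ± 2.86 FPKM; limma adjusted p = 0.0338), while its other row was not (limma adjusted p = 0.243). In mutants the row in GENCODE M21 read 8.38 to 17.8 against 3.61 to 10.1 FPKM, with overlap, and was not called (limma adjusted p = 0.1004). Its call in controls was lost without mesenchymal control 1, 2 or 3 (limma adjusted p = 0.104, 0.0778 and 0.0834) or without non-mesenchymal control 1 (0.0625). Efna1, Efna2, Efna4 and Efnb3 had means under 5 FPKM in all 6 groups and were not called in either genotype. Efna3 was listed at 0 in all non-mesenchymal controls, read 5.16, 1.396 and 0 FPKM in the mesenchymal controls and was not called there.

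Epha3, a receptor for A ephrins, had the largest log2 difference of all members tested, in both genotypes. Epha3 (chr16:63543538-63864158) read 21.4, 33.4 and 21.4 FPKM in mesenchymal and 0.555, 0.288 and 0.241 FPKM in non-mesenchymal controls. Its mutant values were 32.6, 31.6, 36.7 and 28.5 and 0.163, 0.688, 0.264 and 0.885 FPKM. The ratio of means was 70.2 in controls and 64.7 in mutants, and the log2 difference 4.25 (SE 0.25) and 4.498 (SE 0.21) (limma adjusted p = 2.31e-04 and 3.46e-06). The 7 non-mesenchymal libraries of the Igf2 model read 0.1604 to 1.01 FPKM, on the same low level.

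Epha4 (chr1:77367185-77515088), a receptor that also binds B ephrins, read 12.3, 14.996 and 14.2 FPKM in mesenchymal and 0.644, 0.543 and 0.698 FPKM in non-mesenchymal controls, and 12.9, 16.4, 15.96 and 15.6 against 0.624, 1.096, 0.724 and 1.13 FPKM in mutants. The mesenchymal libraries spanned 12.3 to 16.4 FPKM, clear of the others (log2 3.18 in controls and 3.105 in mutants; limma adjusted p = 2.35e-04 and 8.66e-06). Epha1, Epha2 and Epha7 were present on both sides. Epha1 read 3.85 to 8.85 FPKM in mesenchymal and 4.496 to 9.199 FPKM in non-mesenchymal libraries, and Epha2 2.36 to 7.98 and 2.83 to 10.7 FPKM. Epha7 read 7.62 to 17.2 FPKM in mesenchymal and 5.80 to 8.49 FPKM in non-mesenchymal controls, with overlap. In mutants Epha7 read 8.39 to 10.4 and 5.003 to 7.70 FPKM, without overlap (log2 0.498, limma adjusted p = 0.0576). Epha1, Epha2 and Epha7 were not called in either genotype.

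Among the EphB receptors, Ephb2 and Ephb3 were higher in mesenchymal cells in both genotypes, by smaller ratios than Epha3 and Epha4. Ephb3 (chr16:21204755-21223305) read 11.8, 7.06 and 8.38 FPKM in mesenchymal and 1.64, 1.73 and 2.64 FPKM in non-mesenchymal controls, and 10.3, 5.93, 5.06 and 12.8 against 2.07, 2.57, 1.33 and 1.598 FPKM in mutants. Ephb2 (chr4:136647539-136835988) read 11.5, 12.1 and 21.2 against 3.68, 2.93 and 7.801 FPKM in controls and 10.8, 18.2, 11.3 and 26.8 against 5.09, 3.17, 2.898 and 4.55 FPKM in mutants. No library overlapped for either gene within a genotype. Limma gave log2 1.73 (SE 0.26) for Ephb3 and 1.497 (SE 0.39) for Ephb2 in controls (adjusted p = 0.00605 and 0.04199), and 1.65 (SE 0.31) and 1.78 (SE 0.31) in mutants (adjusted p = 0.00444 and 0.00342). The controls' call on Ephb2 was lost without mesenchymal control 1, 2 or 3 (limma adjusted p = 0.0752, 0.0833 and 0.113) and without non-mesenchymal control 1 or 2 (0.114 and 0.123). Ephb4, the venous partner of Efnb2, was called in controls (log2 1.02, limma adjusted p = 0.0479) and read 0.43 in mutants without passing. That call was lost without mesenchymal control 1, 2 or 3 (limma adjusted p = 0.138, 0.113 and 0.0786) and without non-mesenchymal control 1 or 2 (0.116 and 0.1405). Ephb6, which lacks kinase activity, had means of 2.92 ± 1.804 FPKM in mesenchymal against 6.24 ± 2.91 FPKM in non-mesenchymal controls and 3.59 ± 0.5003 against 4.86 ± 1.01 FPKM in mutants and was not called, and Ephb1 and Epha5 had means under 2 FPKM in all 6 groups and were not tested for the fractions.

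The families' partners and downstream genes were taken as lists, to be read beside the 22.6% of all genes called in controls (12.4% higher and 10.3% lower) and the 28.6% called in mutants (13.5% and 15.1%). Of 26 tested effectors of semaphorin and plexin signalling, 6 were higher and 1 lower in mesenchymal controls, and 8 were higher and 3 lower in mutants. Dpysl3, a collapsin response mediator protein, was 57.8 ± 4.602 FPKM in mesenchymal and 5.27 ± 1.204 FPKM in non-mesenchymal controls (log2 3.24, limma adjusted p = 2.64e-04). The kinase Fyn (48.99 ± 10.9 against 15.1 ± 4.07 FPKM) and the GTPase Rnd1 (13.5 ± 2.801 against 4.11 ± 1.49 FPKM) were also higher, and the kinase Pak1 was lower (2.41 ± 0.553 against 13.2 ± 4.601 FPKM). The list's median log2 difference was 0.51 in controls and 0.26 in mutants, beside 0.08 and -0.03 for all genes tested.

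Co-receptors gave 5 higher and 1 lower of 12 tested in controls, and 4 higher and 3 lower of 11 in mutants, with a median log2 difference of 0.55 and 0.78. Itgb1, an integrin chain, was 119 ± 14.5 FPKM in mesenchymal and 42.8 ± 3.98 FPKM in non-mesenchymal controls, its partner Itga1 was 11.5 ± 2.15 and 1.37 ± 0.186 FPKM, and the VEGF receptor Kdr, which is also one of the endothelial markers, 8.36 ± 2.26 and 2.21 ± 1.23 FPKM. Tyrobp, a leukocyte adaptor, was lower, at 1.31 ± 0.557 and 96.6 ± 36.98 FPKM. Of 25 effectors of Eph and ephrin signalling tested in controls, 1 was higher and 2 were lower. In mutants 3 were higher and 2 lower of 26, and the median log2 difference was 0.10 in controls and -0.12 in mutants. Sdc2, a proteoglycan that EphB receptors phosphorylate, was the effector higher in both (52.8 ± 24.4 against 16.5 ± 2.15 FPKM in controls). Its call in controls was close to the threshold (limma adjusted p = 0.0483, and 1.22e-04 in mutants). Ngef, the exchange factor bound by Epha4, was lower in both (0.2503 ± 0.434 against 3.89 ± 0.711 FPKM in controls).

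Other guidance families had 11 higher and 1 lower of 20 tested genes in controls and 9 higher and 1 lower of 18 in mutants, with a median log2 difference of 1.26 and 1.07. Slit2, a secreted ligand of Robo receptors, was 276 ± 32.4 FPKM in mesenchymal and 6.53 ± 1.99 FPKM in non-mesenchymal controls, above every member of the semaphorin and ephrin systems (limma adjusted p = 1.22e-04). Slit3 (90.4 ± 10.7 against 6.32 ± 3.76 FPKM) and the membrane protein Flrt2 (57.3 ± 4.76 against 7.95 ± 1.69 FPKM) were higher as well. Robo3 was at 0 in all libraries of 3 groups.

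The effect of the H19DMD deletion was tested within each fraction. In mesenchymal cells none of 45 members tested passed the limma threshold, where 0.0694% of 15856 genes did, and 1 had an unadjusted p under 0.05 (4.76% of all genes). Groups did not overlap for 2 members (5.39% of all genes). The one with the unadjusted p was Plxnc1 (chr10:94790866-94944578), the receptor of Sema7a, with 2.39, 3.95 and 2.97 FPKM in controls and 7.95, 5.23, 5.01 and 6.34 FPKM in mutants. All mutants lay above all controls (exact permutation p = 0.0286), and the log2 difference was 0.797 (SE 0.24) with a limma adjusted p = 0.927. The other member without overlap was Sema4a, at log2 0.86 (SE 0.38) and limma adjusted p = 0.927. In these libraries the leukocyte markers summed to 15.4 to 28.9 FPKM in controls and 24.5 to 67.2 FPKM in mutants, highest in mutant 4, where Sema4a was also highest. Mesothelial markers summed to 120.2 to 264 and 83.4 to 131 FPKM and pericyte and smooth muscle markers to 476 to 793 and 146 to 715 FPKM, and 0 genes of the 3 lists passed the limma threshold, while 2 mesothelial markers had an unadjusted p under 0.05. Their part in the values of Plxnc1 and Sema4a was not tested. For members that separated the fractions, the 95% interval of the mutant minus control log2 difference was -0.13 to 0.85 for Epha3, -0.27 to 0.44 for Nrp1, -0.07 to 0.66 for Sema5a and -0.66 to 1.03 for Sema3c. The members' median was 0.05, beside -0.07 for all genes.

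In non-mesenchymal cells of the H19DMD model none of 37 members tested passed (0.0677% of 16239 genes did), and 2 had an unadjusted limma p under 0.05 (5.35% of all). The same 2 had groups that did not overlap (5.68% of all). Sema3c read 16.1, 15.99 and 19.1 FPKM in controls and 27.2, 43.1, 35.3 and 30.1 FPKM in mutants. Every mutant was above every control, with a log2 difference of 0.94 (SE 0.19), a 95% interval of 0.48 to 1.39 and a limma adjusted p = 0.892 (exact permutation p = 0.0286). Plxnb2 (chr15:89155549-89171120) read 10.8, 18.1 and 16.9 FPKM in controls and 25.001, 33.9, 19.8 and 35.7 FPKM in mutants, again apart, with a log2 difference of 0.86 (SE 0.27) and a limma adjusted p = 0.892. In the same libraries the erythroid markers summed to 123 to 437 FPKM in controls and 152 to 1706 FPKM in mutants, and the endocrine markers to 19671 to 29787 and 11035 to 20359.8 FPKM, and whether they bear on these values was not tested. The mesenchymal markers summed to 185 to 213 and 165 to 287 FPKM, which overlap.

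The test of whether the H19DMD effect differed between fractions called none of 43 members (0.0117% of 17105 genes), and 5 had an unadjusted limma p under 0.05 (6.35% of all). These were Plxnc1 (log2 1.17 (SE 0.33), mesenchymal minus non-mesenchymal effect), Sema6d (0.62 (SE 0.25)), Plxnb2 (-0.91 (SE 0.38)), Sema3f (-0.96 (SE 0.40)) and Efna1 (-1.57 (SE 0.61)), all with limma adjusted p = 0.755. The median over all genes of this difference was -0.11 and over the members -0.08. Plxnc1 moved from 3.103 to 6.13 FPKM by mean in mesenchymal cells and from 4.68 to 3.25 FPKM in non-mesenchymal cells, without passing the threshold in either. No difference between the control and mutant lists of fraction calls is therefore shown for any member.

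Deletion of Igf2 in the mesenchyme was followed in the non-mesenchymal cells. Among 44 members tested none passed (0.0631% of 17441 genes did), and 3 ephrin rows had an unadjusted limma p under 0.05 (5.28% of all). Groups did not overlap for 4 rows (6.02% of all). Efnb2 (chr8:8617434-8660773) read 15.9, 17.9, 14.4 and 17.1 FPKM in controls and 10.7, 9.896 and 13.5 FPKM in mutants. Efna2 (chr10:80179482-80190010) read 2.14, 2.57, 2.27 and 2.26 FPKM in controls and 0.974, 1.14 and 0.818 FPKM in mutants. In both genes all mutants were below all controls, with log2 differences of -0.49 (SE 0.18) and -0.75 (SE 0.27) and a limma adjusted p = 0.919 for each (exact permutation p = 0.0286).

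The Efna5 row outside GENCODE M21 read 6.32, 6.26, 6.28 and 5.997 FPKM in controls and 2.44, 9.40e-05 and 2.73 FPKM in mutants, while the row in the annotation read 8.102, 8.38, 10.2 and 7.86 and 7.98, 14.6 and 8.35 FPKM. In mutant 2 the first row was close to 0 and the other was the highest of the 7, so the pair moved in opposite directions there. The log2 difference of -1.62 (SE 0.47) for the first row (limma adjusted p = 0.919) is uncertain for that reason. Sema3a had groups apart (5.02, 0.522, 0.324 and 3.57 FPKM in controls and 0.266, 0.0519 and 0.297 FPKM in mutants), but 2 controls were close to the mutants and the limma adjusted p was 0.919.

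The neuropilins and Plxnd1, all found on endothelial cells, ranged widely among these 7 libraries. Nrp1 read 3.404, 12.7, 10.4 and 10.4 FPKM in controls and 8.89, 4.93 and 17.7 FPKM in mutants, and Nrp2 6.14, 10.4, 10.3 and 11.1 and 9.91, 5.203 and 16.7 FPKM. For Plxnd1 the values were 11.6, 40.8, 29.8 and 32.6 and 9.49, 15.6 and 43.7 FPKM. Mutant 3 was the highest in all 3 genes, whereas the lowest was control 1 for Nrp1, mutant 2 for Nrp2 and mutant 1 for Plxnd1, and the genotypes overlapped. The endothelial marker sum was 15.5 to 263 FPKM over the controls and 51.7 to 268 FPKM over the mutants, with control 1 the lowest and mutant 3 the highest of the 7, and its part in these levels was not tested. Acinar markers summed to 31179.9 to 45354 FPKM in controls and 90485 to 105276 FPKM in mutants without overlap, although 0 of 8 passed the limma threshold and 6 had an unadjusted p under 0.05. Whether that difference bears on the members' values was not tested. The members' median log2 difference was -0.20, beside -0.03 over all genes tested.

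**Figure D5:**
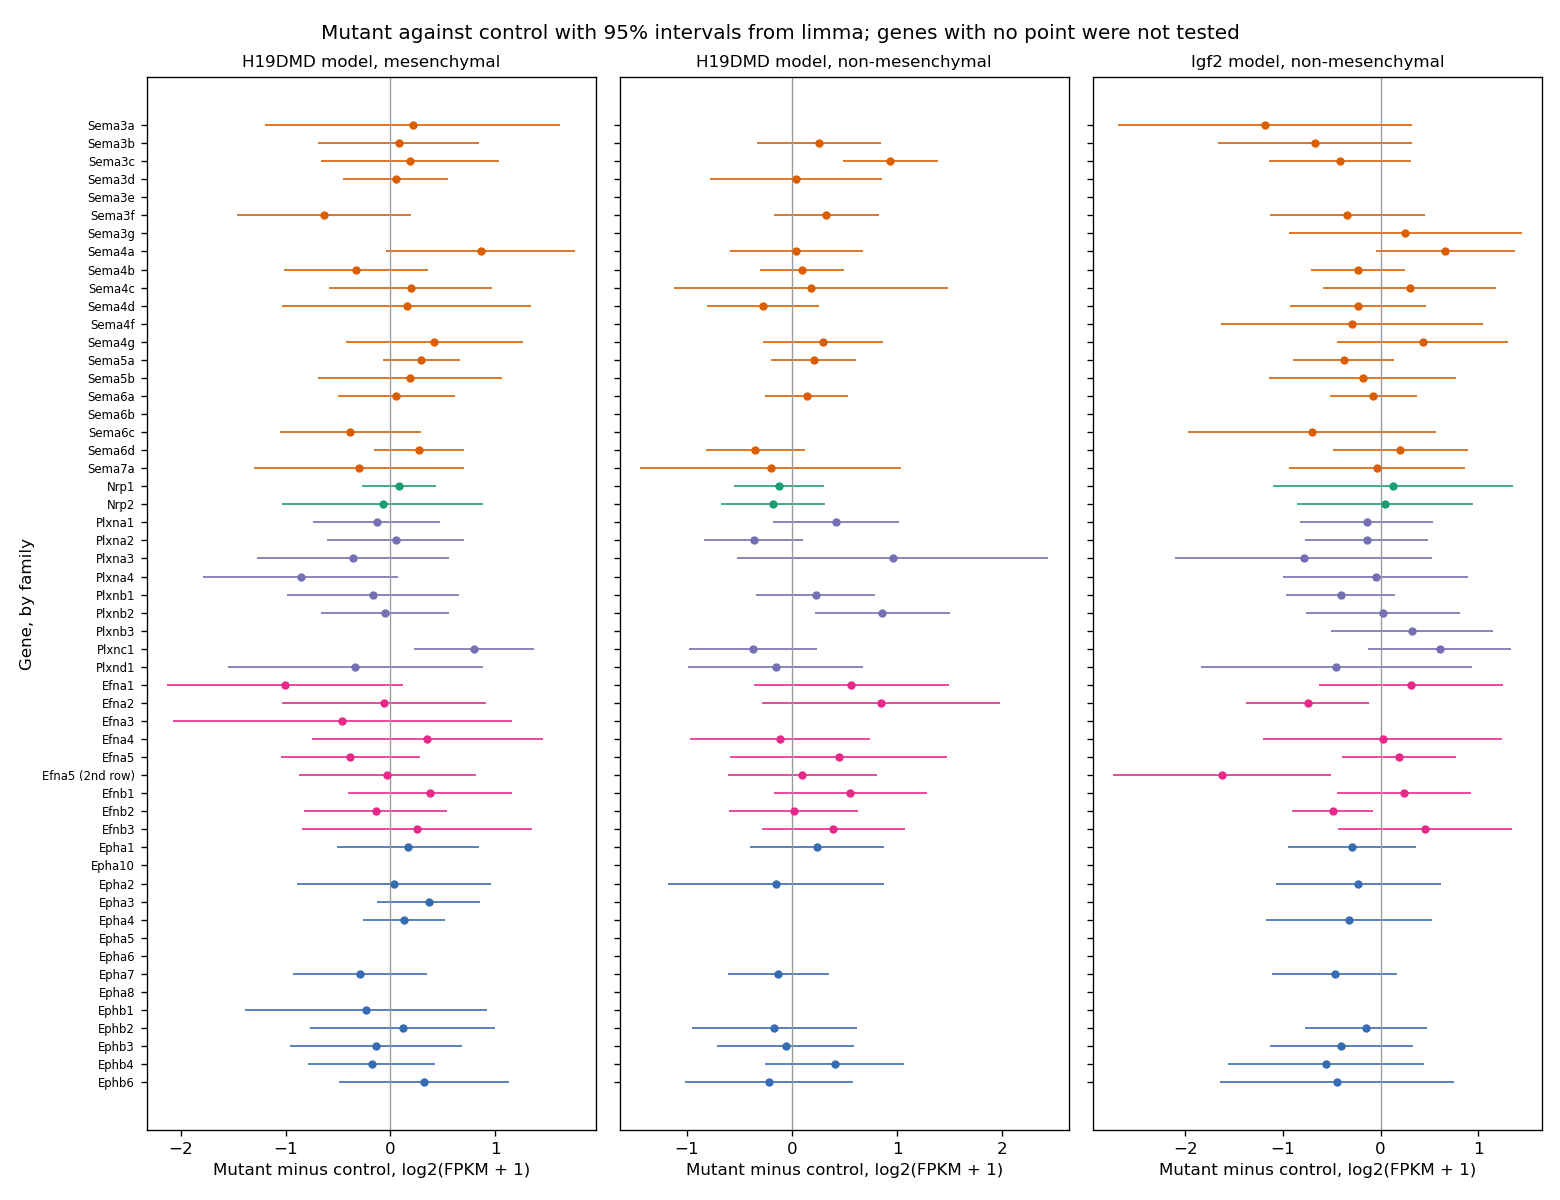
Mutant minus control difference on the log2(FPKM + 1) scale (horizontal) for each member (vertical, by family) with 95% intervals from limma, in mesenchymal and non-mesenchymal cells of the H19DMD model and non-mesenchymal cells of the Igf2 model. Most intervals cross 0, and those of Plxnc1 on the left, Sema3c and Plxnb2 in the middle, and Efnb2, Efna2 and the second Efna5 row on the right do not.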

How the data were processed

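RNA from sorted pancreatic cells was amplified and sequenced as single reads, per the labels' protocols. The authors deposited 1 table per mouse model with FPKM values, per the file headers. TopHat2 2.0.8, Cufflinks 2.2.1 and GRCm38 are named in the submitters' processing notes. The annotation, strand use and scaling between libraries are not given in the sources used here. Of 31 samples, 21 were used. A further 8 columns of mesenchymal cells from the Igf2 model were not used, and 2 H19DMD controls are not analysed here. The tables were normalised separately, so every test was made within a table.

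The 6 comparisons were fitted with limma 3.58.1 in R 4.3.3 (two-sided, eBayes with trend) on log2(FPKM + 1), for genes whose mean across the libraries of a comparison reached 1 FPKM. P-values were adjusted over all genes tested by Benjamini-Hochberg at 0.05, and two-sided exact permutation tests are given for single genes. The fitting code was tested on simulated data. The members, gene lists, tests and alternatives were chosen with earlier results of these data known. The rule gave values in every library for up to 4 members per family and direction called in both fraction comparisons, and for members with an unadjusted p under 0.05 and no overlap in a genotype comparison. From each list of other genes it took up to 3 per direction. Other genes named were chosen after their values were seen. Marker lists covered acinar, ductal, endocrine, mesenchymal, mesothelial, pericyte and smooth muscle, endothelial, erythroid, leukocyte, and Schwann and neural cells. FPKM give no counts, so no counting intervals are given. The alternatives were a pseudocount of 0.1, no filter or a filter of 5 FPKM, median-ratio scaling, loci of at least 200 bp, 1 fit over the 4 groups, a replicate block and leaving out each library.

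Promoter windows and their bases are from the RefSeq table on GRCm38.p6, matched by symbol, and gene positions are those of the deposited tables.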

Additional observations from a re-analysis of the deposited data

Results flagged for a closer look

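In groups of 4 libraries, a library was looked for whose gap to its nearest neighbour was a larger share of the group's range than Dixon's 95% critical value. Over the 54 rows and 162 such groups, 16 did so, and chance alone marks about 1 in 20 groups. Sema3a read 37.1 FPKM in mesenchymal mutant 1 of the H19DMD model, where the other mutants read 12.7 to 15.5 FPKM. Sema4a read 8.86 FPKM in mesenchymal mutant 4, beside 3.28 to 3.75 FPKM. Sema6c read 2.31 FPKM in non-mesenchymal mutant 2, beside 0.308 to 0.57 FPKM. In the controls of the Igf2 model, Nrp2 read 6.14 FPKM in control 1, beside 10.3 to 11.1 FPKM, and Plxnb1 read 22.3 FPKM in control 3, beside 27.8 to 27.9 FPKM. Control 2 of that model stood above its group in Ephb4 (23.99 FPKM beside 10.3 to 12.5 FPKM) and in Sema5a (29.2 beside 18.9 to 20.6 FPKM). Sema4c read 11.1 FPKM in non-mesenchymal mutant 1 of the H19DMD model, beside 3.39 to 4.58 FPKM, Efnb3 read 4.36 FPKM in mesenchymal mutant 2, beside 0.858 to 1.27 FPKM, and Sema7a 2.59 FPKM in mesenchymal mutant 1, beside 0.513 to 0.853 FPKM. The other 6 groups had every library under 1 FPKM. They were Sema3e in mesenchymal mutant 1 (0.6501 FPKM), Epha6 in mesenchymal mutant 2 (0.624 FPKM), Plxnb3 in mesenchymal mutant 4 (0.721 FPKM), Epha8 in non-mesenchymal mutant 4 (0.0877 FPKM), and Epha8 and Epha10 in control 4 of the Igf2 model (0.889 and 0.6304 FPKM). The fraction calls on Sema3a, Sema4a and Sema6c in mutants held without the library named, as did the call on Sema4c (limma adjusted p = 0.0063).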

How the results depend on the processing

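The counts of called members stayed within 1.5 times of those reported under all alternatives run, and no direction reversed. In controls 13 to 19 members were higher and 3 lower when 1 library was left out, and in mutants 15 to 18 were higher and 4 to 5 lower. With a replicate block, 14 were higher and 3 lower in controls and 19 and 4 in mutants, and Sema3a (limma adjusted p = 0.0722), Efnb1 (0.0608), Ephb4 (0.127) and Efna5 (0.0512) were no longer called in controls and Sema4g (0.0627) no longer in mutants. Libraries with the same number correlated weakly at most (the largest correlation was 0.07), and in the fraction comparisons all these correlations were positive. Values this small cannot settle whether the numbers mark pairs, and the main tests did not take them as pairs. In the fraction comparisons, mesenchymal libraries 1 to 3 of the mutants and 1 and 2 of the controls correlated best with the library of their own number, and the others did not. Without a filter on low values Ephb2 and Ephb4 were not called in controls (limma adjusted p = 0.0548 and 0.0616), nor Plxna1, Sema4c and Sema4g in mutants (0.0587, 0.0655 and 0.0531). Sema4c was also lost under median-ratio scaling (0.0531) and with 1 fit over the 4 groups (0.0674). Under median-ratio scaling 18 members were higher and 3 lower in controls, and 18 and 5 in mutants, while over all genes the median difference in controls moved from 0.08 to -0.03. All 4 genotype counts stayed at 0 under every alternative run, leaving out each library included. The depth of the libraries is unknown, and members under 1 FPKM were not tested.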

Other observations

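Levels of known ligand and receptor pairs are set side by side here as means, with no test of the pairing. Sema4d was 19.1 ± 0.191 FPKM (SD, n = 3) and its receptor Plxnb1 15.9 ± 2.15 FPKM in non-mesenchymal controls, while in mesenchymal controls they were 3.86 ± 1.97 and 4.21 ± 0.951 FPKM. Sema3c and Nrp1 were both higher in mesenchymal cells, at 92.1 ± 27.9 and 45.1 ± 6.06 FPKM. Efnb2 was 14.95 ± 2.26 FPKM in mesenchymal and 9.03 ± 3.32 FPKM in non-mesenchymal controls, Ephb2 14.9 ± 5.403 and 4.804 ± 2.62 FPKM, and Ephb3 9.08 ± 2.44 and 2.004 ± 0.552 FPKM. The Efna5 row in GENCODE M21 and Epha3 were both higher in mesenchymal controls, at 17.98 ± 3.47 and 25.4 ± 6.93 FPKM. Sema3e and its receptor Plxnd1 differed in level everywhere: Sema3e had means under 1 FPKM in all 6 groups, and Plxnd1 ranged over 4.695 to 43.7 FPKM across the 21 libraries.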
